A study of Capsella grandiflora x Capsella rubella and Capsella rubella and Capsella grandiflora with 8 samples.

Results

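Seeds of the outcrossing species Capsella grandiflora (Cg) were compared with seeds of the selfing species C. rubella (Cr), both harvested 6 days after pollination (DAP). The comparison takes 4 of the 8 libraries of the series, 2 per species, chosen by the sample labels. The other 4 libraries, of the reciprocal hybrids Cr × Cg and Cg × Cr (female parent first), entered the filter on low counts, the normalization, the estimate of the spread and descriptions, but not the contrast itself. Each library held 300 to 500 seeds of wild-type plants crossed within the species, whose flowers were emasculated and hand-pollinated 2 days later in both species. Expression was measured in 1 accession of each species, so species and accession cannot be told apart. The sources call the replicates biological without naming separate plants. The p-values measure the spread between such samples within a cross, estimated over the parental and hybrid libraries together.

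Seeds of the mustard family hold 3 genetically distinct compartments. The embryo is diploid and later fills with storage proteins and oil, the endosperm is a triploid nourishing tissue that first grows as a syncytium and then forms cell walls, and the seed coat is maternal tissue that makes pigments and mucilage. Whole seeds were sequenced, so a smaller share of a compartment and less RNA per cell cannot be told apart. C. rubella is a young selfing lineage derived from a C. grandiflora-like outcrossing ancestor.

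The Cr libraries had totals of 33989559 and 24860795 counts, and the Cg libraries had 30005563 and 27202704. Reads of both species had been aligned to the C. rubella genome, so a C. grandiflora gene that diverged from it or is missing from it yields fewer counts. Levels are given as CPM, read counts scaled to the same library total after TMM normalization, and are compared only within a gene, since gene lengths were not used. Across genes, log2 CPM of replicates correlated with r = 0.976 in Cr and 0.975 in Cg, and libraries of different species with r between 0.909 and 0.925. At least 4-fold differences between replicates occurred in 259 genes of Cr and 286 of Cg, 1.46% and 1.57% of the genes at 1 CPM. Cr replicate 1 stood apart from Cr replicate 2 in genes of late seed maturation, as described below for storage proteins. Summed storage protein levels were higher in replicate 1 of every cross, hybrids included.

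Of 26521 genes in the table, 21214 passed the filter on low counts and entered the quasi-likelihood test of edgeR. At a Benjamini-Hochberg adjusted p under 0.05, 1624 genes were higher in Cg (7.66% of those tested) and 1142 were lower (5.38%), 13.0% in all. The genes higher in Cg differed more: their median log2 fold change was 2.87, against -1.72 for the lower ones. Changes of at least 16-fold were found in 586 of the higher and 186 of the lower genes. The median over all tested genes was 0.01 on the log2 scale. Leaving out 1 library reduced the calls to 710 higher and 473 lower without Cr replicate 1 and to 510 and 443 without Cr replicate 2. The calls were 927 and 560 without Cg replicate 1, and 739 and 372 without Cg replicate 2. In these fits the single remaining library of a species is assumed to vary like the other crosses. A call in the same direction in all 4 of these fits was kept by 412 higher and 271 lower genes, 1.94% and 1.28% of those tested.

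**Figure D1:**
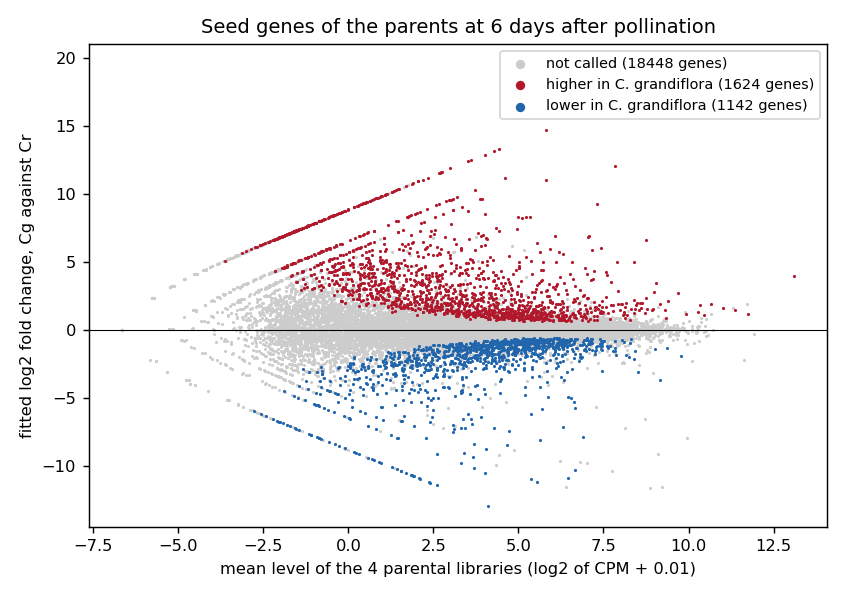
Each point is 1 of the 21214 tested genes, with its mean CPM over the 4 parental libraries on a log2 axis and its fitted log2 fold change in Cg against Cr. The 1624 genes called higher in Cg (red) spread to larger fold changes than the 1142 called lower (blue), and the straight upper and lower edges are genes without a count in 1 species.

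The direction of the calls changed with the level. Of the 5304 genes with the lowest mean level, up to 3.57 CPM, 12.0% were called higher and 4.32% lower in Cg. Of the 5304 with the highest, above 50.1 CPM, the shares were 4.49% and 4.11%. No count in either Cr library was found for 195 of the genes higher in Cg, 12.0% of them, and no count in either Cg library for 48 of the genes lower in Cg, 4.20%. For the latter, absence from the seed and failure of the C. grandiflora reads to align cannot be told apart. The former are present in the C. rubella annotation, and reads from C. grandiflora seeds aligned to them. Why they had no count in C. rubella seeds was not tested.

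Ranked by fitted log2 fold change, the largest differences that held without each library were close to presence against absence. For genes at 0 only a lower limit of the difference is known, so this rank is not one of known ratios. The cystatin gene CYS5, described below and not among the 8, had a count ratio of 2199 (95% exact counting interval from 752 to 10664). Carubv10007795m.g had 95.3 and 128 CPM in Cg and no count in Cr, where 3 counts over both libraries would give a level at least 2195-fold lower (edgeR, adjusted p = 0.00019). Carubv10001198m.g stood at 43.4 and 43.1 CPM in Cg and at 0 in Cr, at least 857-fold lower (adjusted p = 6.3e-05). Carubv10025484m.g, at 17.5 and 60.8 CPM in Cg, Carubv10016182m.g, at 12.2 and 36.4, and Carubv10018040m.g, at 15.4 and 16.6, also had no count in Cr. Their levels in Cr were at least 752-, 468- and 316-fold lower. Carubv10020144m.g and Carubv10023687m.g, with 6.23 and 20.8 CPM and 13.6 and 12.8 CPM in Cg, completed the 7 of 8 leading genes without a count in Cr, at least 260- and 261-fold lower there.

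The exception was Carubv10019340m.g, the homologue of AT3G58740, which encodes a peroxisomal citrate synthase. It had 0.0296 and 0.195 CPM in Cr (1 and 5 counts) and 559 and 357 CPM in Cg. The fitted log2 fold change was 12.06 (SE 0.67, adjusted p = 9e-05), and its adjusted p was at most 0.0012 without any 1 library. It was the only one of the 8 genes paired with an Arabidopsis gene in the tables used here.

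In the other direction, Carubv10007661m.g had 43.7 and 25.1 CPM in Cr and no count in Cg, at least 679-fold lower there (adjusted p = 0.0038). Carubv10025718m.g had 109 and 78.8 CPM in Cr and 1 count in each Cg library, a ratio of 2735 with a 95% exact counting interval from 757 to 22587 that covers counting error only. Carubv10021928m.g had 105 and 58.6 CPM in Cr and again 1 count in each Cg library, a ratio of 2423 with an interval from 670.5 to 20016. Both therefore had reads that aligned in Cg, though nearly none. Carubv10019219m.g, Carubv10021614m.g, Carubv10023473m.g, Carubv10007803m.g and Carubv10025518m.g had between 8.04 and 12.2 CPM in the Cr libraries and no count in Cg, with levels there at least 229-, 199-, 202-, 164- and 161-fold lower.

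The 16 genes were followed into the hybrids, whose libraries shared in the filter, the normalization and the estimate of the spread but not in the contrast that chose them. Of the 8 genes higher in Cg, every one was higher in both Cg × Cr libraries than in both Cr × Cg libraries. Carubv10007795m.g had 132 and 70.3 CPM in Cg × Cr, and 0.0298 and 0 CPM in Cr × Cg. Of the 8 genes lower in Cg, every one was higher in both Cr × Cg libraries. Carubv10007661m.g had 34.2 and 57.7 CPM in Cr × Cg, and 0.398 and 1.89 CPM in Cg × Cr. In all 16 genes the hybrid with the mother from the species with the higher level had the higher CPM.

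**Figure D2:**
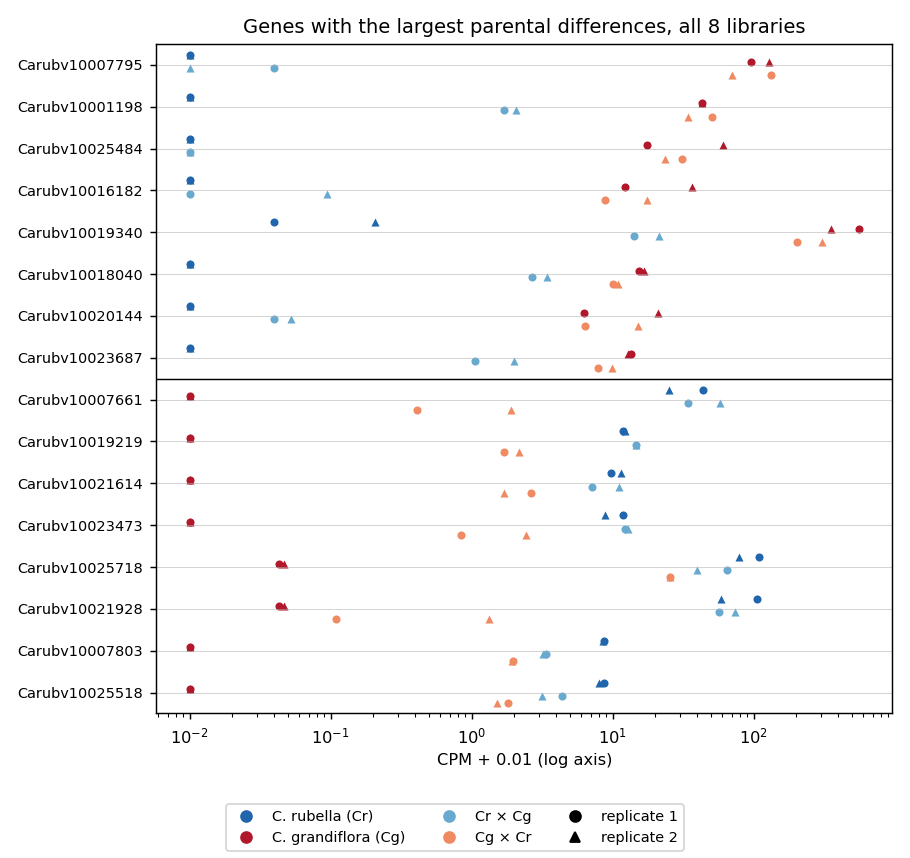
CPM plus 0.01 on a log axis for the 8 genes higher (above the line) and the 8 lower in Cg with the largest fitted differences, in all 8 libraries, circles and triangles being replicates 1 and 2. Points at 0.01 are libraries without a count, and the hybrid points of each gene are higher in the hybrid whose mother is the species with the higher level.

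Over all genes the same description was less marked. Both Cg × Cr libraries lay above both Cr × Cg libraries in 34.1% of all tested genes, and the reverse held in 32.2%. Among the 195 genes called higher in Cg and without a count in Cr, 115 (59.0%) were higher in Cg × Cr and 63 (32.3%) in Cr × Cg. Among the 48 genes without a count in Cg, 38 (79.2%) were higher in Cr × Cg and 3 (6.25%) in Cg × Cr. Among all 1624 genes higher in Cg the shares were 43.0% for Cg × Cr and 40.8% for Cr × Cg, and among the 1142 lower genes 40.6% and 42.0%.

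The called genes with most reads differed by smaller factors than these 16, with fitted log2 fold changes from 1.07 to 3.97 in the 6 higher and from -3.70 to -1.34 in the 6 lower ones. Carubv10006370m.g, the homologue of AT4G12870 of the GILT thiol reductase family, had 1435 and 664 CPM in Cr and 18390 and 14542 CPM in Cg, the most reads of any called gene. The fitted log2 fold change was 3.97 (SE 0.45, adjusted p = 0.0017), and it was called without each library. All 4 hybrid libraries had between 11317 and 14455 CPM, close to Cg and apart from Cr. Carubv10016221m.g (2193 and 2132 CPM in Cr, 3946 and 5581 in Cg), Carubv10027976m.g (1584 and 1237 against 3208 and 4438), Carubv10009667m.g (1148 and 922 against 2808 and 3391) and Carubv10020513m.g (944 and 857 against 1654 and 2127) were higher in Cg by 1.14, 1.44, 1.58 and 1.07 on the log2 scale. Carubv10027521m.g, the homologue of AT5G46960 from the invertase and pectin methylesterase inhibitor superfamily, had 744 and 627 CPM in Cr and 3440 and 1694 in Cg (log2 fold change 1.90, adjusted p = 0.024). These last 5 calls were each lost in at least 3 of the 4 fits with a library left out, those of Carubv10016221m.g and Carubv10020513m.g in all 4, with adjusted p up to 0.18 without Cg replicate 2 and up to 0.17 without Cr replicate 2.

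Among the genes lower in Cg, 3 of the 6 with most reads were homologues of proteases. Carubv10003637m.g and Carubv10021675m.g correspond to PASPA3 and PASPA2, vacuolar aspartic proteases that process seed storage proteins in Arabidopsis. PASPA3 had 645 and 1247 CPM in Cr and 379 and 370 in Cg (log2 fold change -1.34, SE 0.36, adjusted p = 0.047). PASPA2 had 691 and 625 CPM in Cr and 117 and 35.7 in Cg (-3.10, SE 0.80, adjusted p = 0.048). Carubv10008379m.g, the homologue of the subtilase gene AT1G01900, had 375 and 654 CPM in Cr and 180 and 162 in Cg (-1.59, SE 0.40, adjusted p = 0.04). The unnamed genes Carubv10024488m.g (1543 and 1273 CPM in Cr, 486 and 242 in Cg), Carubv10000760m.g (1013 and 1128 against 119 and 46.3, a log2 fold change of -3.70) and Carubv10014051m.g (772 and 717 against 329 and 239) were the other 3. PASPA3 and AT1G01900 were called only without Cr replicate 1 (adjusted p = 0.034 and 0.049), and PASPA2 and Carubv10000760m.g in none of the 4 fits with a library left out. Carubv10024488m.g was called only without Cg replicate 1 (0.041) and Carubv10014051m.g only without Cr replicate 2 or Cg replicate 1 (0.047 and 0.029).

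Arabidopsis counterparts were available for 3603 genes, those that the study's tables list as responding in hybrid or Arabidopsis triploid seeds, and 3288 of them were tested. Of these, 394 (12.0%) were called higher and 205 (6.23%) lower in Cg. The lists below hold only members paired in this way, so they are not complete and were not drawn at random. They are mostly set against all tested genes, whose shares of 7.66% and 5.38% are lower than these 12.0% and 6.23%. No pair was found for the listed DNA methylation and Polycomb genes or for the reference genes.

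**Figure D3:**
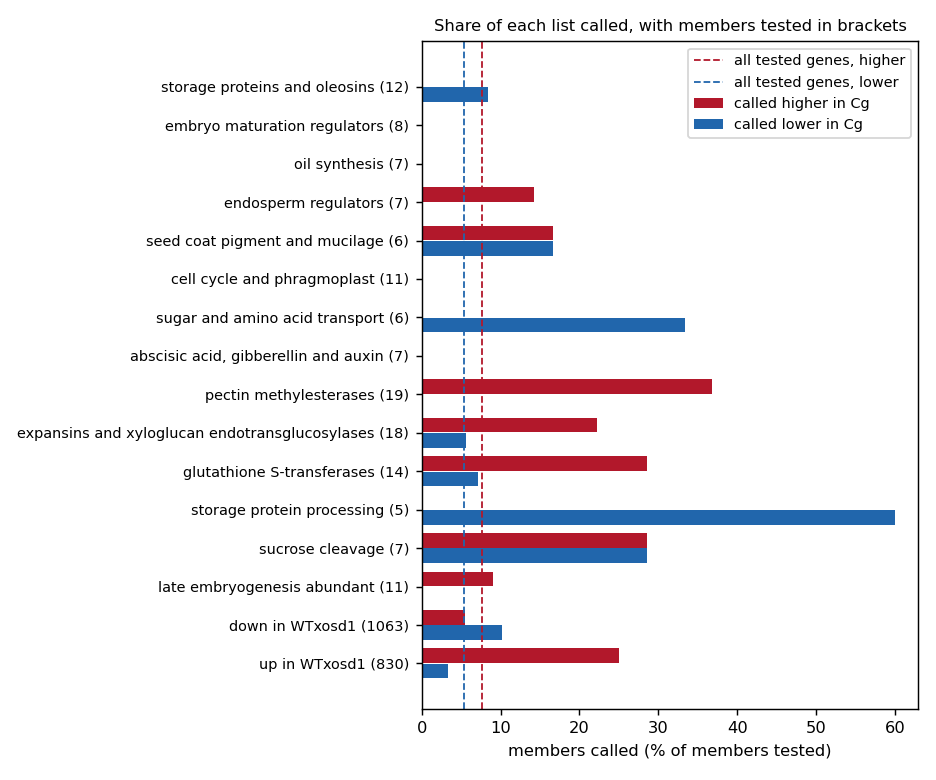
Bars give the share of tested members called higher (red) or lower (blue) in Cg for each list with at least 5 members tested, and dashed lines give 7.66% and 5.38% for all tested genes. Shares of the short lists rest on 0 to 7 genes, and the 2 lists from Arabidopsis WT × osd1 seeds are long ones of 1063 and 830 members.

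Regulators of the endosperm gave 1 call among 7 tested, 14.3% higher in Cg against 7.66% of all tested genes. MINI3 (Carubv10011619m.g), a WRKY factor that promotes endosperm growth in Arabidopsis, had 0.919 and 2.07 CPM in Cr and 5.99 and 6.69 in Cg (log2 fold change 2.10, SE 0.54, adjusted p = 0.04). This call was lost without any 1 library, with adjusted p from 0.063 without Cr replicate 2 to 0.17 without Cr replicate 1. ZOU and ICE1, whose proteins act together in the breakdown of the endosperm, and the subtilase gene ALE1 were not called. ICE1 (Carubv10017099m.g) had 357 and 492 CPM in Cr and 216 and 263 in Cg (adjusted p = 0.13), and ALE1 (Carubv10021339m.g) had 93.8 and 149 against 65.1 and 38.5 (adjusted p = 0.21). FWA, MEA and FIS2, known as imprinted genes, had adjusted p = 0.14, 0.31 and 0.84. None of 11 tested genes of the cell cycle and of cytokinesis was called by edgeR or DESeq2, where edgeR called 13.0% of all tested genes, and 0 of the 11 had an unadjusted p under 0.05. KN (Carubv10012277m.g), the syntaxin of the forming cell plate, had 385 and 443 CPM in Cr and 356 and 337 in Cg, and the mitotic cyclin CYCB1;2 had 85.9 and 95.1 against 96.2 and 110.

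The regulators of embryo maturation were not called by edgeR in any of 8 tested genes, where 13.0% of all tested genes were. At an unadjusted p under 0.05, 2 of the 8 were lower in Cg, and DESeq2 called BZIP67 lower. WRI1 (Carubv10018845m.g), which activates oil synthesis, had 282 and 423 CPM in Cr and 314 and 337 in Cg (log2 fold change -0.11, adjusted p = 0.78), and without Cr replicate 2 its log2 fold change was 0.20. LEC1 had 147 and 148 CPM in Cr and 174 and 78.0 in Cg, and LEC2 had 53.1 and 88.8 against 103 and 100. BZIP67 (Carubv10019243m.g), a factor that activates storage protein genes together with L1L, had 151 and 316 CPM in Cr and 107 and 19.2 in Cg (adjusted p = 0.17). L1L had 100 and 91.6 CPM in Cr and 27.5 and 11.1 in Cg (adjusted p = 0.16). In BZIP67 and L1L the Cg replicates lay far apart. None of 7 tested oil synthesis genes was called by edgeR or DESeq2, against the same 13.0%, and 3 were lower at an unadjusted p under 0.05. The members with most reads, KAS1 (616 and 536 CPM in Cr, 446 and 455 in Cg) and the plastid pyruvate kinase gene PKP1 (510 and 566 against 376 and 358), had adjusted p = 0.44 and 0.28. All 7 fitted changes were negative, with a median of -0.55.

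Storage proteins and oleosins, the coat proteins of oil bodies, showed a wide gap between the Cr replicates. Their summed level over 12 members was 13449 CPM in Cr replicate 1 and 1190 in Cr replicate 2, against 451 and 229 in Cg. In the hybrids it was 1326 and 75.9 CPM for Cr × Cg and 5155 and 2425 for Cg × Cr, so replicate 1 was higher there too. The cruciferin gene CRC (Carubv10006612m.g) had 3876 and 41.2 CPM in Cr and 11.8 and 4.18 in Cg. CRA1 (Carubv10012738m.g) had 2350 and 23.9 CPM in Cr and 0.666 and 0.074 in Cg. With this spread CRC and CRA1 were not called by edgeR (adjusted p = 0.21 and 0.12). The 2S albumin gene SESA4 behaved alike, with 2148 and 30.0 CPM in Cr and 3.33 and 0.518 in Cg. The oleosin genes differed among themselves, from OLE2 with 605 and 288 CPM in Cr and 102 and 57.8 in Cg to OLE4 with 297 and 0.585 against 0.166 and 0.185. The only edgeR call was Carubv10024739m.g, the homologue of the vicilin-like cupin gene AT2G28490, with 238 and 79.4 CPM in Cr and 1.27 and 0.962 in Cg (log2 fold change -7.15, SE 1.62, adjusted p = 0.04). It was lost without any 1 library, with adjusted p from 0.08 without Cr replicate 2 to 0.20 without Cg replicate 2. By edgeR 8.33% of the list were lower, against 5.38% of all tested genes. DESeq2 called 8 of the 12 lower in Cg, and 1838 of all 21214 tested genes. All 12 fitted changes were negative, but most of the summed Cr level came from Cr replicate 1.

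Cr replicate 1 was high in other genes of late maturation too. The list of late embryogenesis abundant (LEA) genes, whose proteins protect the drying embryo, was drawn up after the files had been seen. Its 11 tested members summed to 142 and 3.67 CPM in Cr and 16.3 and 14.0 in Cg. LEA76 (Carubv10016274m.g) had 34.5 and 0.078 CPM in Cr and 0.0999 and 0.148 in Cg, a log2 fold change of -7.09 that became 0.64 without Cr replicate 1. LEA10 (Carubv10025232m.g) moved from -2.23 to 2.42 in the same way. The only LEA call of edgeR was LEA14 (Carubv10010557m.g), higher in Cg with 2.04 and 1.48 CPM in Cr and 6.49 and 4.29 in Cg (log2 fold change 1.61, adjusted p = 0.03). It was lost without any 1 library, with adjusted p from 0.051 without Cg replicate 2 to 0.15 without Cr replicate 2. Lower in Cg were 0 LEA genes by edgeR, 4 at an unadjusted p under 0.05, and 4 by DESeq2, namely LEA31, LEA3G, LEA41 and LEA76. Over all 21214 tested genes, DESeq2 called 1838 lower. By edgeR 9.09% of the list were higher, against 7.66% of all tested genes. The part of Cr replicate 1 in the other parental differences cannot be read from the calls without it. The calls fell whichever parental library was left out.

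Proteases that mature storage proteins were lower in Cg in 3 of 5 tested genes, where 5.38% of all genes were, and the list was drawn up after the files had been seen. Beside PASPA2 and PASPA3 this was αVPE (Carubv10025418m.g), a vacuolar processing enzyme, with 230 and 424 CPM in Cr and 133 and 88.8 in Cg (log2 fold change -1.56, SE 0.38, adjusted p = 0.033). βVPE, the main seed form in Arabidopsis, had 54.0 and 28.4 CPM in Cr and 22.9 and 19.5 in Cg (adjusted p = 0.074), and γVPE had 65.0 and 71.7 against 56.2 and 24.3 (adjusted p = 0.18). The summed level of the 5 genes was 1685 and 2396 CPM in Cr and 708 and 538 in Cg. Here Cr replicate 2 was the higher one, unlike in storage proteins. The 3 calls became 2 without Cr replicate 1, 1 without Cr replicate 2 or Cg replicate 1, and 0 without Cg replicate 2.

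**Figure D4:**
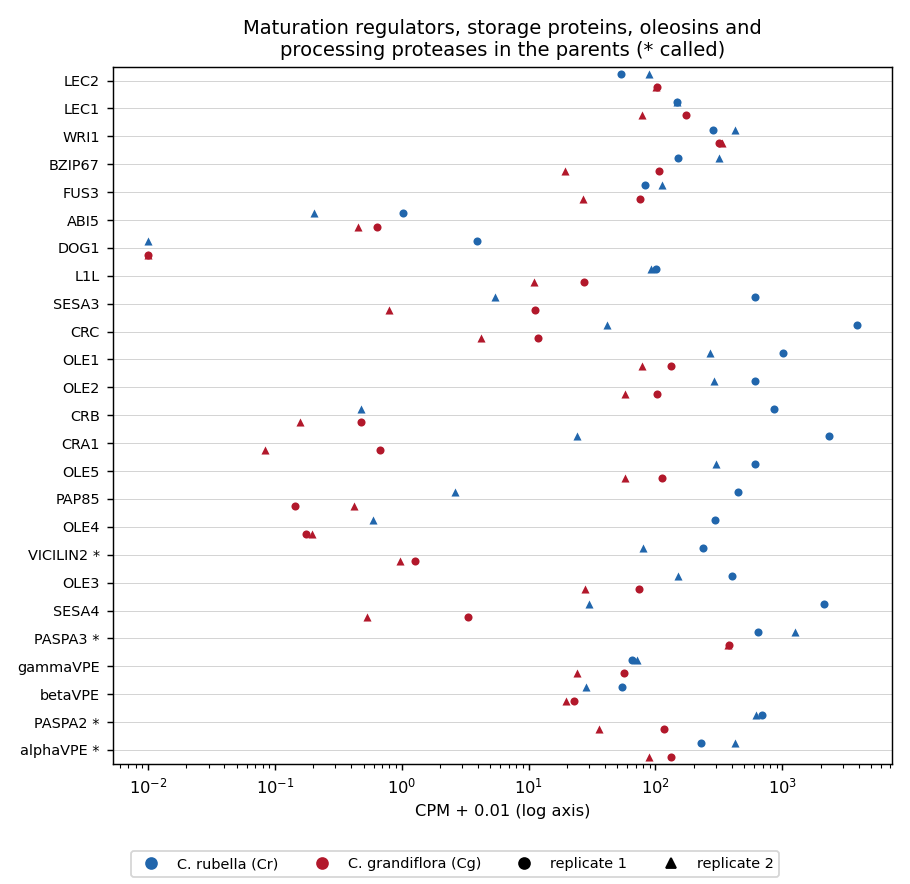
CPM plus 0.01 on a log axis in the 4 parental libraries for 8 maturation regulators, 12 storage protein and oleosin genes and 5 proteases that process storage proteins, with stars at called genes. In storage proteins the blue circle (Cr replicate 1) lies far to the right of the blue triangle (Cr replicate 2), as in CRC with 3876 and 41.2 CPM, while the 4 points of WRI1 lie close together and those of BZIP67 run from 19.2 to 316 CPM.

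In the seed coat, TT12 and PMEI6 were called in opposite directions among 6 tested genes, 16.7% each against 7.66% and 5.38% of all genes. TT12 (Carubv10018603m.g), a vacuolar transporter of proanthocyanidin precursors, had 26.6 and 22.8 CPM in Cr and 76.9 and 127 in Cg (log2 fold change 2.05, SE 0.28, adjusted p = 0.0038). It was called without each library (adjusted p at most 0.042). PMEI6 (Carubv10024078m.g), a pectin methylesterase inhibitor needed for mucilage release, had 373 and 252 CPM in Cr and 38.7 and 36.4 in Cg (-3.06, SE 0.67, adjusted p = 0.029). That call was lost without any 1 library, with adjusted p from 0.084 without Cr replicate 2 to 0.15 without Cg replicate 2. MUM4 (Carubv10008513m.g), which makes the rhamnose of mucilage, had 436 and 485 CPM in Cr and 160 and 103 in Cg. GATL5 had 250 and 252 against 105 and 54.6. Neither was called by edgeR (adjusted p = 0.11 and 0.10). DESeq2 called 4 of the 6 lower in Cg, namely GATL5, MUM4, PER36 and PMEI6, and TT12 higher. Over all 21214 tested genes it called 1838 lower and 2373 higher. PER36 had 158 and 110 CPM in Cr and 35.6 and 44.9 in Cg and was not called by edgeR (adjusted p = 0.19). UUAT1 (Carubv10001004m.g), a Golgi transporter of uronic acid for mucilage that was picked out after its values were seen, had 85.2 and 112 CPM in Cr and 36.3 and 44.4 in Cg and kept its call without each library (-1.29, adjusted p = 0.0068).

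Genes of cell wall loosening were taken in a pair of lists drawn up after the files had been seen. Pectin methylesterases, which remove methyl groups from pectin and so change wall stiffness, were called higher in 7 and lower in 0 of 19 tested genes, 36.8% against 7.66% of all genes and 12.0% of those with an Arabidopsis counterpart. DESeq2 called the same numbers in this list, and 2373 higher and 1838 lower over all 21214 tested genes. In edgeR, 1 gene of the list was lower at an unadjusted p under 0.05. The homologue of AT5G26810 (Carubv10003078m.g) had 0.978 and 1.37 CPM in Cr and 22.8 and 18.5 in Cg (log2 fold change 4.14, SE 0.45, adjusted p = 0.0015) and was called without each library. The other calls were PME1, PME19, PME44 and the homologues of AT4G02300, AT3G24130 (Carubv10021607m.g) and AT3G43270, with log2 fold changes from 0.86 to 2.53. The count fell to 1 without Cr replicate 1 or 2, to 4 without Cg replicate 1 and to 2 without Cg replicate 2, and was 4 in a fit of only the parental libraries. The uncalled member with most reads, the homologue of AT2G43050 (Carubv10023013m.g), had 159 and 400 CPM in Cr and 639 and 53.0 in Cg. This spread left it without a direction (log2 fold change 0.31, and -2.40 without Cg replicate 1), and PME5 had 90.9 and 36.6 CPM against 43.7 and 54.4.

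Expansins and xyloglucan endotransglucosylases, which loosen cellulose networks, were called higher in 4 and lower in 1 of 18 tested genes, 22.2% and 5.56% against 7.66% and 5.38% of all genes. The fitted change was positive in 8 of the 18, with a median of -0.24 on the log2 scale. DESeq2 called 5 higher and 3 lower, and 2373 and 1838 over all 21214 tested genes. EXPA9 (Carubv10001761m.g) had 3.62 and 3.04 CPM in Cr and 152 and 159 in Cg, with a log2 fold change of 5.54 (SE 0.24, adjusted p = 3.1e-05). It kept an adjusted p of at most 0.00083 without any 1 library, and it had 113 and 136 CPM in Cg × Cr and 20.4 and 16.1 in Cr × Cg. XTH2, XTH11 and XTH24 were the other higher genes. XTH24 (Carubv10005183m.g) had 88.3 and 76.4 CPM in Cr and 184 and 214 in Cg (1.27, adjusted p = 0.031), and XTH11 had 22.1 and 31.3 against 69.0 and 329. EXPA1 (Carubv10020849m.g) was lower, with 8.42 and 10.5 CPM in Cr and 4.49 and 3.92 in Cg (-1.16, adjusted p = 0.035). XTH33, with 109 and 67.8 against 49.7 and 47.9, was not called by edgeR (adjusted p = 0.061) but by DESeq2, and EXPA5, with 76.0 and 18.8 against 13.6 and 17.5, by neither. Of the 5 calls, EXPA9 held without each library. Without Cr replicate 1 it was the only higher call left, without Cr replicate 2 there were 2 higher and 2 lower calls, XTH33 and XTH22 being the latter, and without either Cg replicate 3 higher and 0 lower. The EXPA1 call was lost without any 1 library, with adjusted p from 0.076 without Cr replicate 1 to 0.15 without Cr replicate 2.

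Structural wall proteins gave values in both directions. EXT3 (Carubv10009850m.g), an extensin that scaffolds new cell walls in the Arabidopsis embryo, had 102 and 86.5 CPM in Cr and 2.16 and 7.99 in Cg (log2 fold change -4.22, SE 0.67, adjusted p = 0.0094). PRP4 (Carubv10004627m.g), a proline-rich wall protein, had 7.05 and 1.91 CPM in Cr and 73.0 and 119 in Cg (4.41, SE 0.65, adjusted p = 0.0075). UGT72E3 (Carubv10026316m.g), which glucosylates lignin precursors, had 5.36 and 3.98 CPM in Cr and 68.7 and 132 in Cg (4.42, SE 0.36, adjusted p = 0.00042). MIOX1 (Carubv10009817m.g), an oxygenase that turns inositol into glucuronic acid for wall sugars, had 21.1 and 22.5 CPM in Cr and 110 and 87.6 in Cg (2.18, SE 0.31, adjusted p = 0.0043). EXT3, PRP4, UGT72E3, MIOX1 and, further on, STP8, IGMT5 and the other genes of no list were picked after their values were seen, for a known role, from the 98 higher and 36 lower genes with an Arabidopsis counterpart that were called without each library.

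Genes of sugar supply were called in both directions. SWEET transporters export sucrose from the seed coat and endosperm towards the embryo, and 2 of them were lower in Cg. SWEET15 (Carubv10002612m.g) had 213 and 262 CPM in Cr and 78.2 and 58.0 in Cg (log2 fold change -1.80, SE 0.31, adjusted p = 0.0098). SWEET12 (Carubv10001629m.g) had 75.5 and 77.3 CPM in Cr and 22.5 and 8.17 in Cg (-2.32, SE 0.58, adjusted p = 0.043). SWEET11 (Carubv10017757m.g) had 86.0 and 227 CPM against 53.2 and 8.21, and the phloem loader SUC2 (Carubv10008884m.g) 388 and 474 against 231 and 72.3. Neither was called by edgeR (adjusted p = 0.16 and 0.22). No other member of the 6 tested transport genes was called, so 33.3% of this list were lower, against 5.38% of all tested genes. The SWEET15 call was lost without Cr replicate 2 or Cg replicate 2 (adjusted p = 0.053 and 0.073), and that of SWEET12 was kept only without Cg replicate 1 (0.036). The sugar transporter gene STP8 (Carubv10003709m.g) had 1.75 and 1.56 CPM in Cr and 28.5 and 24.9 in Cg (4.01, SE 0.49, adjusted p = 0.0025).

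A list under the heading of sucrose cleavage was drawn up after the files had been seen. Among its 7 tested genes, 2 were higher and 2 lower in Cg, 28.6% each against 7.66% and 5.38% of all genes. Enzyme activity was not measured, so the values do not show which members cleave sucrose. The cell wall invertase gene CWINV1 (Carubv10013316m.g) had 31.2 and 31.0 CPM in Cr and 7.16 and 5.29 in Cg (log2 fold change -2.32, SE 0.28, adjusted p = 0.0022). The vacuolar invertase gene VIN1 (Carubv10019930m.g) had 0.0296 and 0.156 CPM in Cr and 3.53 and 2.22 in Cg (4.98, SE 0.75, adjusted p = 0.0057). CWINV1 and VIN1 were called without each library. SUS2 (Carubv10025867m.g), the sucrose synthase of maturing seeds, had 149 and 55.6 CPM in Cr and 17.4 and 7.62 in Cg (-3.03, adjusted p = 0.049). CWINV6 (Carubv10000634m.g) had no count in Cr and 15 and 16 counts in Cg, at least 10.7-fold higher. The SUS2 call was lost without any 1 library (adjusted p from 0.064 to 0.21), and that of CWINV6 was kept only without Cg replicate 1 (0.038). VIN2 and CWINV4, with 48.6 and 77.1 CPM in Cr against 73.4 and 85.0 in Cg and with 31.2 and 30.6 against 38.3 and 44.6, were not called.

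Glutathione S-transferases, which attach glutathione to reactive or foreign molecules, were called higher in 4 and lower in 1 of 14 tested genes, 28.6% and 7.14% against 7.66% and 5.38% of all genes, again in a list drawn up after the files had been seen. GSTF6 (Carubv10010300m.g) had 0.385 and 0.897 CPM in Cr and 12.2 and 10.4 in Cg (log2 fold change 4.15, SE 0.66, adjusted p = 0.007) and was called without each library. GSTF3 had 94.3 and 140 CPM in Cr and 546 and 376 in Cg (1.98, adjusted p = 0.029). GSTU4 and GSTU7 were higher by 1.48 and 1.19, and GSTU26 (Carubv10010264m.g) was lower, with 46.8 and 27.3 CPM in Cr and 11.1 and 6.73 in Cg (-2.06, adjusted p = 0.026). GSTF8, with 106 and 68.3 against 77.4 and 69.6, was not called. GSTF3 and GSTU4 were called in none of the fits with 1 library left out, GSTU7 only without Cg replicate 1 and GSTU26 only without Cr replicate 2. None of 4 tested glucosinolate genes was called by edgeR in their list, against 13.0% of all tested genes. In that list TGG1 was lower at an unadjusted p under 0.05 and called by DESeq2. Outside it, IGMT5 (Carubv10022155m.g), which methylates indole glucosinolates, had 144 and 98.1 CPM in Cr and 446 and 658 in Cg (2.19, SE 0.32, adjusted p = 0.005).

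Homologues of small secreted cysteine-rich peptides were found among the genes higher in Cg. Such peptides act in signalling between cells in reproduction and in defence. Carubv10006434m.g, the counterpart of AT4G15735 (SCRL10), had 5.78 and 5.85 CPM in Cr and 209 and 162 in Cg (log2 fold change 5.00, SE 0.35, adjusted p = 0.00024). Carubv10021314m.g (AT1G60983, SCRL8) had 6.07 and 4.88 CPM in Cr and 44.9 and 40.1 in Cg, and Carubv10002558m.g (AT4G22105, SCRL26) had 0.356 and 1.37 against 10.3 and 6.77. The LCR genes AT1G68907, AT5G48945 and AT2G12465 had counterparts at 11.6 and 9.21, 9.72 and 8.51, and 9.72 and 6.47 CPM in Cg, and at or below 0.702 CPM in Cr. These 6 genes were called without each library and were chosen after their values were seen, so they are examples and not a count over the family. The cystatin gene CYS5 (Carubv10024940m.g), whose protein inhibits cysteine proteases, had 0.0593 and 0.039 CPM in Cr and 101 and 123 in Cg (10.99, SE 0.47, adjusted p = 3.1e-05). In the hybrids CYS5 had 134 and 77.8 CPM in Cr × Cg against 0.797 and 0.945 in the other direction, and SCRL10 had 647 and 473 against 1.56 and 2.87. In CYS5 and SCRL10 the hybrid with the Cg father thus had the higher level, the reverse of the 8 genes with the largest differences. Its SCRL10 level lay above Cg in both libraries, and its CYS5 levels lay on either side of the Cg levels. SULTR3;5 (Carubv10000408m.g), a sulfate transporter gene, followed the direction of those 8 genes. It had 3.23 and 3.20 CPM in Cr, 74.8 and 129 in Cg, 2.98 and 2.74 for Cr × Cg, but 99.2 and 71.4 for Cg × Cr.

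Further genes with a known role in Arabidopsis held their call without each library. Lower in Cg were AGT1 (Carubv10013869m.g), an aminotransferase of photorespiration, with 168 and 204 CPM in Cr and 57.7 and 35.4 in Cg, and PATL1 (Carubv10020065m.g), a membrane-trafficking protein of the forming cell plate, with 64.1 and 85.4 against 19.4 and 20.7. The proton pump gene AHA4 (Carubv10016646m.g) had 43.6 and 50.2 CPM in Cr and 14.0 and 15.8 in Cg, and the endosomal Rab GTPase gene ARA6 (Carubv10017459m.g) had 37.2 and 23.2 against 2.46 and 0.481. Their log2 fold changes were -2.00, -1.90, -1.65 and -4.34, in that order. Higher in Cg were HTH (Carubv10020023m.g), needed to keep floral organs from fusing, with 5.84 and 3.78 CPM in Cr and 42.4 and 55.1 in Cg, and PCS1 (Carubv10000953m.g), an aspartic protease that prevents cell death in gametophytes and embryos, with 3.23 and 0.858 against 21.2 and 36.7. The poly(A)-binding protein gene PAB5 (Carubv10021938m.g), expressed mainly in reproductive organs, had 16.0 and 16.9 CPM in Cr and 62.8 and 70.5 in Cg. Their log2 fold changes were 3.33, 3.80 and 2.02.

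None of 7 tested genes of abscisic acid, gibberellin and auxin metabolism was called by edgeR, where 13.0% of all tested genes were. At an unadjusted p under 0.05, 2 were higher, and DESeq2 called GA3OX4 higher. CYP707A1 (Carubv10004758m.g), which breaks down abscisic acid, had 42.1 and 42.2 CPM in Cr and 92.4 and 58.5 in Cg (adjusted p = 0.11), and the auxin synthesis gene TAA1 (Carubv10020400m.g) had 97.4 and 78.5 against 69.9 and 28.7 (adjusted p = 0.23).

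Markers of tissues other than the seed were paired only in part. The fruit marker SPT (Carubv10005083m.g), 1 of 7 genes listed for fruit wall and placenta, had 16.4 and 9.28 CPM in Cr and 10.3 and 14.2 in Cg. Green tissue markers, 3 of 19 paired and tested, summed to 2073 and 1381 CPM in Cr and 2098 and 1274 in Cg, nearly all from RBCS1B. None was called by edgeR or DESeq2 or had an unadjusted p under 0.05. Of 4 tested pollen markers, the sperm fusion gene HAP2 (Carubv10002940m.g) was lower in Cg, with 40.0 and 52.8 CPM in Cr and 14.4 and 12.3 in Cg (log2 fold change -1.80, SE 0.30, adjusted p = 0.008). This call was lost without Cr replicate 2 or Cg replicate 2 (adjusted p = 0.051 and 0.058). A homologue of DAF1 (Carubv10024582m.g) lay the other way, with 2.28 and 2.34 CPM in Cr and 9.46 and 8.29 in Cg (1.94, SE 0.87, adjusted p = 0.19), and 2 of the 4 fitted changes were positive. VGD1, a pollen tube pectin methylesterase gene, had 1.87 to 4.66 CPM over the 4 libraries. No tested marker of these lists was at 0 in a parental library, and the part of other tissues in the parental differences was not tested.

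The parental difference was also read against Arabidopsis seeds with extra paternal genomes. In the study's tables, WT × osd1 denotes crosses with pollen of the omission of second division 1 mutant, which forms unreduced pollen and so gives triploid seeds with a paternal genome in excess. These responses were measured in Arabidopsis and not in the Capsella libraries. The lists of the reciprocal cross, osd1 × WT, were not used, because all its genes listed as falling were also listed as rising. Of 830 tested Capsella homologues of genes that rose in WT × osd1 seeds, 208 (25.1%) were called higher and 28 (3.37%) lower in Cg, with a median log2 fold change of 1.18 with genes at 0 set to their bound. Of 1063 tested homologues of genes that fell, 58 (5.46%) were called higher and 108 (10.2%) lower, with a median of -0.39. Over all tested genes the shares were 7.66% and 5.38%, and over all genes with an Arabidopsis counterpart 12.0% and 6.23%. The genes with a counterpart include both lists themselves and genes that the study chose by comparing hybrid seeds with these parents. Their shares are therefore not an independent reference. When Cr replicate 1 or 2 was left out, 80 and 70 of the first list were called higher, and 112 and 95 when Cg replicate 1 or 2 was left out. The 108 lower calls of the second list became 55, 36, 56 and 25 in the same order, and the order of the shares within each list was the same in the fits without Cr replicate 1, Cr replicate 2 and Cg replicate 1. Without Cg replicate 2, 25 members of the second list were called in each direction. PASPA3 and the homologue of AT1G01900, lower in Cg, are members of the list that fell, and so are CYS5, IGMT5 and the citrate synthase homologue Carubv10019340m.g, which were higher in Cg by 10.99, 2.19 and 12.06 on the log2 scale. The summed level of the first list was 17048 and 14035 CPM in Cr and 24419 and 23562 in Cg, and that of the second 56347 and 63452 against 52423 and 45773.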

How the data were processed

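RNA of 300 to 500 seeds per library was made into libraries with a kit that does not keep strand, so a gene and its antisense partner cannot be told apart. The authors aligned reads to the C. rubella genome with Stampy, removed reads with several locations with SAMtools and counted reads per gene with HTSeq, and they deposited these counts without normalization. Per the labels, Trimmomatic was also used. The members, gene lists and named genes were chosen with earlier results of these data known.

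Genes were kept by filterByExpr (count minimum of 10), scaled by TMM and fitted with the robust quasi-likelihood model of edgeR 4.0.16 in R 4.3.3 on all 8 libraries. The contrast was Cg against Cr, with Benjamini-Hochberg adjustment over 21214 genes and calls at an adjusted p under 0.05. The SE is the absolute log2 fold change divided by the square root of F and restates the test. The study's own rank product was not run. Genes at 0 were set against 3 counts over both libraries of a species, and counting intervals are exact at 95% and cover counting error only. The step was tested on simulated data. Replicates differed by more than sampling noise, with a chi-square per degree of freedom of 81.6 in Cr and 91.4 in Cg.

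Named were the 8 genes per direction with the largest change among those called without each library and at 5 CPM or more in the higher species, the 6 called genes per direction with the highest mean CPM, and in each list up to 4 called members by p and 2 uncalled ones by level. Counts of 5 or fewer completed the rule, a group of genes it also names is not reported here, and other names were added after their values were seen. Alternatives were DESeq2 1.42.0, its size factors, no filter, 1 CPM in 2 libraries, only the 4 parental libraries, a replicate block, a log2 minimum of 1 and each library left out. Python 3.11.15 with pandas 2.3.3 made the tables. No genome was used, so no positions or sequences are given.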

Additional observations from a re-analysis of the deposited data

How the results depend on the processing

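The 1624 genes higher and 1142 lower in Cg became 2373 and 1838 with DESeq2, 1643 and 1127 with its size factors in edgeR, 1623 and 1122 without a filter, 1523 and 1092 at 1 CPM in 2 libraries, 1549 and 1145 with only the 4 parental libraries, and 1480 and 956 with a log2 minimum of 1 in either direction. With 1 library left out, the counts lay between 510 and 927 higher and between 372 and 560 lower. Homologues of genes that rose in WT × osd1 gave 208 higher and 28 lower calls, and 70 to 112 and 7 to 10 with 1 library left out. Homologues of genes that fell gave 58 and 108, and 21 to 30 and 25 to 56. With DESeq2 the lower calls were 44 in the list that rose, and the calls were 95 and 207 in the list that fell.

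The main fit did not pair the samples by replicate number. The differences between replicates 1 and 2 correlated with r = -0.14 between Cr and Cg, and with r from -0.21 to 0.36 over all 6 pairs of crosses. The highest values were 0.36 for Cr with Cr × Cg and 0.23 for Cr × Cg with Cg × Cr. The summed storage protein level was higher in replicate 1 of all 4 crosses. Whether replicates of the same number share a batch was not tested. The replicate block gave 1389 higher and 1028 lower genes, and a block with the Cg numbers crossed, added after the data were seen, 1973 and 1501. With the replicate block the calls went from 1 to 4 lower in storage proteins and oleosins, from 7 to 3 higher in pectin methylesterases and from 3 to 1 lower in storage protein processing. Under the replicate block the homologue of AT2G43050 had a log2 fold change of -0.85, in place of 0.31.

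Changes of sign were confined to uncalled genes among the 110 named. With 1 library left out, the log2 fold change lay between -0.37 and 0.20 for WRI1, between -0.43 and 0.40 for SPT and between -0.23 and 1.06 for VGD1. It lay between -2.40 and 1.19 for the homologue of AT2G43050, between -0.90 and 0.43 for PME5, between -0.53 and 0.11 for GSTF8 and between -0.86 and 1.08 for GSTU16. For RBCS1B it lay between -0.41 and 0.32, for LEA10 between -3.21 and 2.42 and for LEA76 between -8.09 and 0.64. The causes were not tested. With 2 libraries per species and 4 residual degrees of freedom, precision was limited by the spread between replicates more than by the 24860795 to 33989559 counts per library.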
